A study of Mus musculus with 8 samples.

Results

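The integrin subunits, the laminin chains and 4 proteins that link laminin to the rest of the basement membrane were described by cell class in the ascending thoracic aorta of old mice. These 41 of the 32285 measured genes were chosen by name: 18 integrin alpha genes, 8 integrin beta genes, 5 laminin alpha, 3 laminin beta and 3 laminin gamma genes, and the linkers Nid1, Nid2, Hspg2 and Agrn. The tissue came from 3 wildtype mice of 81, 84 and 88 weeks, whose cells were given a hashtag antibody per animal, pooled and measured by single-cell RNA sequencing. The labels give no strain, sex or treatment, and no young or treated animals were analysed here, so every comparison is between cell classes within the same animals.

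Integrins are cell surface receptors made of 1 alpha and 1 beta chain, which tie the cytoskeleton to the matrix. Laminins are trimers of an alpha, a beta and a gamma chain that form sheets under endothelium and around muscle cells, and nidogens, perlecan (Hspg2) and agrin (Agrn) join these sheets to type IV collagen and to cells. In the aortic wall each smooth muscle cell is wrapped in a thin basement membrane between the elastic lamellae, and fibroblasts of the adventitia lie mostly in interstitial matrix.

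The counts held 142108011 gene UMIs (unique molecular identifiers, 1 per captured molecule) in 26916 cell barcodes, none of which was repeated, with 900 to 104654 UMIs per barcode. Of 11301 cells past the filters, 10156 entered 1 clustering, 4004 of them with exactly 1 hashtag, and classes were named "-like" from marker genes because no annotation by the authors was used here. The largest classes were smooth muscle-like (5125 cells), T cell-like (1862 cells), fibroblast-like (1281 cells) and endothelial-like (898 cells). A hashtag was found on 14.4% of smooth muscle-like and 15.7% of fibroblast-like cells, and on 90.8% of endothelial-like and 90.5% of T cell-like cells. T cell RNA (at least 2 UMIs of T cell markers) was seen in 49.9% of the hashtagged and 17.2% of the other smooth muscle-like cells, in 52.7% and 17.8% of fibroblast-like cells, and in 15.7% and 14.5% of endothelial-like cells. Fibroblast markers (10 genes) summed to 895 to 1014 CPM in the smooth muscle-like sets and 34076 to 37905 CPM in the fibroblast-like sets, and smooth muscle markers to 40540 to 42634 and 1680 to 2476 CPM, with all 10 of each list detected in both. The part of such stray RNA in the results below was not tested, though for some genes the level is set beside that of the markers. Most T cell-like cells stood in clusters led by Rag1, Cd8b1 and Dntt, genes of developing thymocytes, or by histone and division genes. Of the 815 hashtagged endothelial-like cells, those in clusters with capillary genes such as Gpihbp1, Cd36 and Fabp4 outnumbered those in clusters with the large-vessel genes Cytl1, Bmp4 and Vwf in every animal (196, 313 and 233 against 23, 17 and 33 cells).

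UMIs were summed over the hashtagged cells of a class in each animal. Levels are given in CPM, the gene's share of that sum scaled to the same total in every set. Values per animal are always in the order 81, 84 and 88 weeks, with n = 3 animals as told apart by their hashtags. Such a level falls alike with fewer expressing cells and with less RNA per cell, and these cannot be told apart in the sums. Because the libraries count transcript 3' ends, levels were not divided by gene length. A gene was called where edgeR's quasi-likelihood test gave a Benjamini-Hochberg adjusted p under 0.05 over all genes tested and a difference of at least 2-fold. Where values of classes are said not to overlap or to stand apart, the share of all genes that did so was not counted. Of the 41 genes, 30 passed the filter on low counts in at least 1 of the 5 comparisons, and of the other 11, Itga2, Itga2b, Itgad, Itgae, Itgam, Itgax, Itgb6, Itgb7, Lama1 and Lama3 are given as pooled counts only.

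The stretches upstream of 3 members that stood well apart between the wall classes are shown so that their sequence can be set beside their levels. They are the 250 bases before the start in the RefSeq promoter table (GRCm38.p6; for Itga8 and Lamb1 that start lies inside the outer bounds of the gene), 5' to 3', with matches to the GC box GGGCGG or the letters CCGGAA, on either strand, in capitals. Itga8 led in smooth muscle-like cells, and Lamb1 and Nid1 in fibroblast-like cells. The windows are chr2:12301945-12302194 (minus strand), chr12:31265043-31265292 and chr13:13437352-13437601 (plus strand).
Itga8: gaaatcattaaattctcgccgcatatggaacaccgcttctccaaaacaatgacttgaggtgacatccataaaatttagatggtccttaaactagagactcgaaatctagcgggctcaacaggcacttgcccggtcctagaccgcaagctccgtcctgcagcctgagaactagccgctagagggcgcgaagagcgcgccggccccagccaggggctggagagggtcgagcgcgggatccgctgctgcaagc
Lamb1: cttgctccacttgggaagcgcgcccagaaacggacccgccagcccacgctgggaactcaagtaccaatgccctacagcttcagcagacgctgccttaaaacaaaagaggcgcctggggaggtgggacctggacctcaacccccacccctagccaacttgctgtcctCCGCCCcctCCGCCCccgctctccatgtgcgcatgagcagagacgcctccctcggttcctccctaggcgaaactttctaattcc
Nid1: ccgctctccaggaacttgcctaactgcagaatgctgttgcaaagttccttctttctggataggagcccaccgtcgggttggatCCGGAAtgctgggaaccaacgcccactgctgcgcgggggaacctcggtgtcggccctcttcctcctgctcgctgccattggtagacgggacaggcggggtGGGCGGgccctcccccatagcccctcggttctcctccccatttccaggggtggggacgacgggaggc
Lamb1 held 2 GC boxes and Nid1 held 1, with 1 match to CCGGAA, whereas neither motif was found in the window of Itga8. For 7 of the 26 members with a promoter in the RefSeq table, among them Itga9, a start in the table lies over 1000 bases inside the gene, and none of these is shown. The GC box stood in 11 of the 26 members, and in 32.74% of all 32851 such windows. CCGGAA stood in 2 of the 26 and in 12.03% of all, and the CArG box in 2 of the 26 (Itgb6 and Lama2) and in 1.47% of all. A member counts where any of its windows matched, windows far inside the gene included. The shares over all are of single windows, so the measures differ where a member has several. The base composition was 56.4% G and C for Itga8, 62.0% for Lamb1 and 64.4% for Nid1. A match describes letters only.

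Each class had its own set of chains, as pooled UMIs over hashtagged and unhashtagged cells show. Itgb1, the beta chain that most alpha chains pair with, was found in every class, with 1757 CPM in smooth muscle-like, 843 in endothelial-like, 472 in fibroblast-like and 184 in T cell-like cells. Itga8, whose product binds nephronectin and other RGD proteins, reached 1617 CPM in smooth muscle-like cells, and the next class, NK cell-like, had 286 CPM from 50 UMIs. The part of stray smooth muscle RNA in that NK cell-like level was not tested. Lama1, the laminin alpha chain of early embryos, had 1 UMI in all cells.

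**Figure D1:**
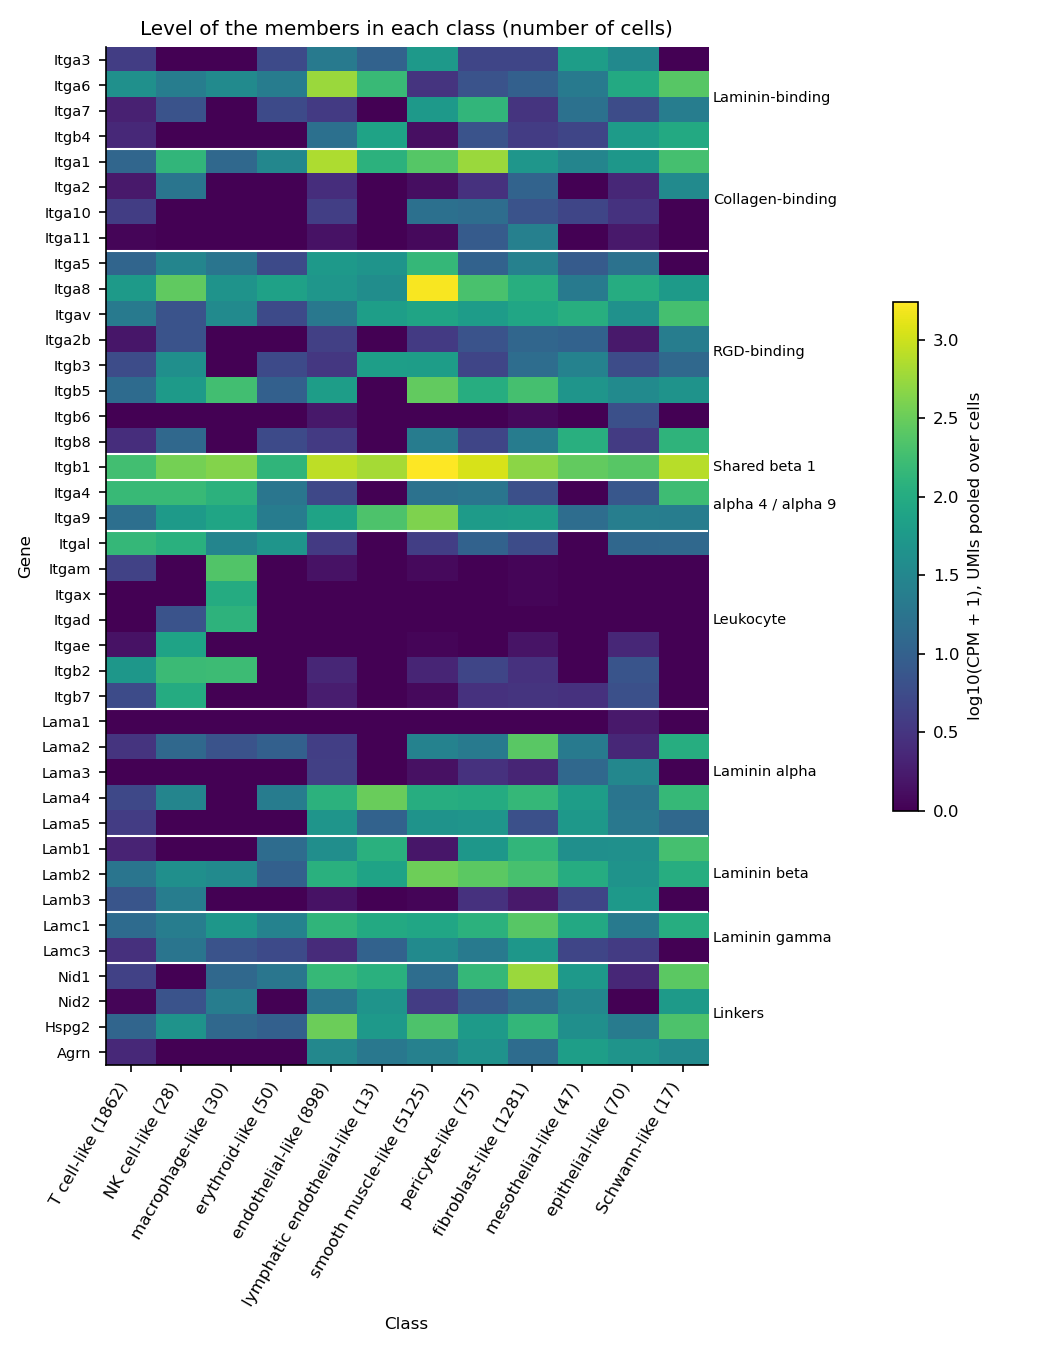
Level of the members (rows, grouped by the ligands or cells they are known for) in 12 classes (columns, number of cells in brackets), as log10 of CPM plus 1 over the pooled UMIs of cells with 1 or no hashtag. Itga8 and Itgb1 are brightest in smooth muscle-like cells, Itga1 and Itga6 in endothelial-like cells, and Nid1 in fibroblast-like cells, while Lama1 is near 0 in every column.

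Smooth muscle-like cells carried more of the integrin receptors than fibroblast-like cells, and fibroblast-like cells more of the laminin and nidogen chains. Of 27 members tested, 10 passed as higher and 7 as lower, where 10.2% and 12.2% of all 9721 genes were. Among the 16 integrins 8 were higher and 2 lower, among 7 laminins 1 was higher and 3 lower, and among 4 linkers 1 was higher and 2 lower. The median log2 difference was 0.68 over the members and -0.03 over all genes. The fibroblast-like sets held 40, 115 and 46 cells.

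Itga8 (chr2:12106632-12301985) had 1651, 1525 and 1621 CPM in smooth muscle-like cells, against 201, 67.5 and 92.7 CPM in fibroblast-like cells, a log2 difference of 3.98 ± 0.17 (SE, adjusted p = 1.01e-15 by edgeR). Itgb1 (chr8:128685654-128733579) had 1765, 1673 and 1730 CPM in smooth muscle-like cells, against 513, 465 and 466 CPM in fibroblast-like cells (1.94 ± 0.10, adjusted p = 1.84e-14). Both stood apart in every animal. Itga8 in fibroblast-like cells stood at 6.68% of the pooled smooth muscle-like level, where 10 smooth muscle markers stood at 4.09% to 17.1% (median 5.09%), and it lay above 7 of the 10. The part of stray smooth muscle RNA in the fibroblast-like level of Itga8 was not tested. Itga9, a receptor for tenascin and osteopontin, had 385, 407 and 402 CPM in smooth muscle-like cells, against 90.9, 43.3 and 72.1 CPM in fibroblast-like cells (2.77 ± 0.16, adjusted p = 4.36e-13). The collagen and laminin receptor chain Itga1 had 242, 256 and 242 CPM in smooth muscle-like cells, against 48.1, 44.4 and 61.8 CPM in fibroblast-like cells (2.41 ± 0.15). The fibronectin receptor chain Itga5 had 177, 139 and 138 CPM in smooth muscle-like cells, against 48.1, 25.2 and 28.3 CPM in fibroblast-like cells (2.33 ± 0.17). For each of these 3 chains, no fibroblast-like value reached a smooth muscle-like one.

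The laminin receptor chain Itga7, best known from skeletal muscle, had 51.3, 51.3 and 57.5 CPM in smooth muscle-like cells and no UMI in hashtagged fibroblast-like cells. Against 3 UMIs over that group it was at least 31.1-fold higher. Itga3, another laminin receptor chain, had 51.8, 48.5 and 55.4 CPM in smooth muscle-like cells, against 10.7, 1.01 and 2.57 CPM in fibroblast-like cells (3.94 ± 0.39, adjusted p = 8.5e-09). Itgb3, the partner of Itgav in a vitronectin receptor, had 57.3, 66.6 and 67.6 CPM in smooth muscle-like cells, against 21.4, 10.1 and 18.0 CPM in fibroblast-like cells (2.25 ± 0.25). Itgav itself was not called, with 73.6 ± 4.88 CPM in smooth muscle-like and 85.2 ± 6.60 CPM in fibroblast-like cells (SD, log2 difference -0.09 ± 0.15). Itgb5 passed the p but not the 2-fold limit, with 284 ± 8.13 and 189 ± 15.6 CPM (0.68 ± 0.12), and Itgb8 was not called (-0.11 ± 0.27). Fibroblast-like cells had more Itga11, a receptor chain for fibrillar collagen, with 1.09, 0 and 1.39 CPM in smooth muscle-like cells and 26.7, 27.2 and 36.0 CPM in fibroblast-like cells (-5.34 ± 0.53). Itga6 was called lower (-2.33 ± 0.45, adjusted p = 1.68e-04), but its fibroblast-like values were 82.9, 17.1 and 5.15 CPM, and without the animal of 81 weeks the difference was -1.16 (adjusted p = 0.0687), while without that of 84 weeks it fell under the filter on low counts. The same fibroblast-like set of 81 weeks held all 7 UMIs that fibroblast-like sets had of Itgb4, its hemidesmosome partner. Itga10, a collagen receptor chain, was not called (0.96 ± 0.39), but it was without the animal of 81 weeks (1.14). Itga4 (0.86 ± 0.33) and Itgal (-0.65 ± 0.44), chains of leukocytes, were not called either, and T cell markers summed to 115, 592 and 254 CPM in the smooth muscle-like and 155, 932 and 749 CPM in the fibroblast-like sets. Itga4 was called without the animal of 84 weeks (1.99, adjusted p = 0.0482 by edgeR) and without cells that held T cell RNA (2.24, adjusted p = 0.0161).

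The laminin chains split by class. Lamb1 (chr12:31265146-31329644), the beta1 chain, had 0.546, 0.611 and 0 CPM in smooth muscle-like cells (4 UMIs in all), against 155, 105 and 167 CPM in fibroblast-like cells, a log2 difference of -8.01 ± 0.33 (adjusted p = 3.28e-16). The beta2 chain Lamb2 was present in both, with 370, 317 and 333 CPM in smooth muscle-like cells and 238, 205 and 209 CPM in fibroblast-like cells (0.74 ± 0.11, under the 2-fold limit). So the beta chain counted in smooth muscle-like cells was nearly all Lamb2. Lama2, the alpha chain of muscle and nerve basement membranes, had 26.2, 26.5 and 29.2 CPM in smooth muscle-like cells, against 267, 232 and 324 CPM in fibroblast-like cells (-3.20 ± 0.13). Lama5 ran the other way, with 44.2, 48.5 and 46.7 CPM in smooth muscle-like cells, against 2.67, 5.04 and 0 CPM in fibroblast-like cells (3.86 ± 0.39). Lama4, the alpha chain of vessel walls, had 100.2 ± 9.25 CPM in smooth muscle-like and 134 ± 9.83 CPM in fibroblast-like cells (-0.33 ± 0.13, under the 2-fold limit). The shared gamma1 chain Lamc1 had 66.0, 78.4 and 86.7 CPM in smooth muscle-like cells, against 257, 232 and 216 CPM in fibroblast-like cells (-1.499 ± 0.13). The gamma3 chain Lamc3 was not called (-0.36 ± 0.21).

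Among the linkers Nid1 (chr13:13437602-13512275), nidogen, which bridges laminin and type IV collagen, stood furthest apart. It had 15.3, 13.9 and 14.6 CPM in smooth muscle-like cells, against 591, 596 and 618 CPM in fibroblast-like cells (-5.28 ± 0.13, adjusted p = 2.74e-20). Nid2, the other nidogen, was lower too, with 2.18, 1.63 and 2.09 CPM, against 16.0, 8.06 and 10.3 CPM (-2.33 ± 0.52). Perlecan (Hspg2) had 213 ± 12.9 CPM in smooth muscle-like and 162 ± 26.7 CPM in fibroblast-like cells (0.54 ± 0.12, under the 2-fold limit). Agrin (Agrn) had 26.3 ± 2.31 and 11.7 ± 3.31 CPM and was called higher (1.31 ± 0.31, adjusted p = 0.00149), but DESeq2 gave an adjusted p of 0.0605, and without the animal of 84 weeks it was 0.0651. T cell RNA was present in 23.2%, 69.6% and 35.2% of the hashtagged smooth muscle-like cells and in 22.5%, 67.0% and 43.5% of the fibroblast-like cells. Without cells that held it, 15 members were called, 14 of them among the 17.

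**Figure D2:**
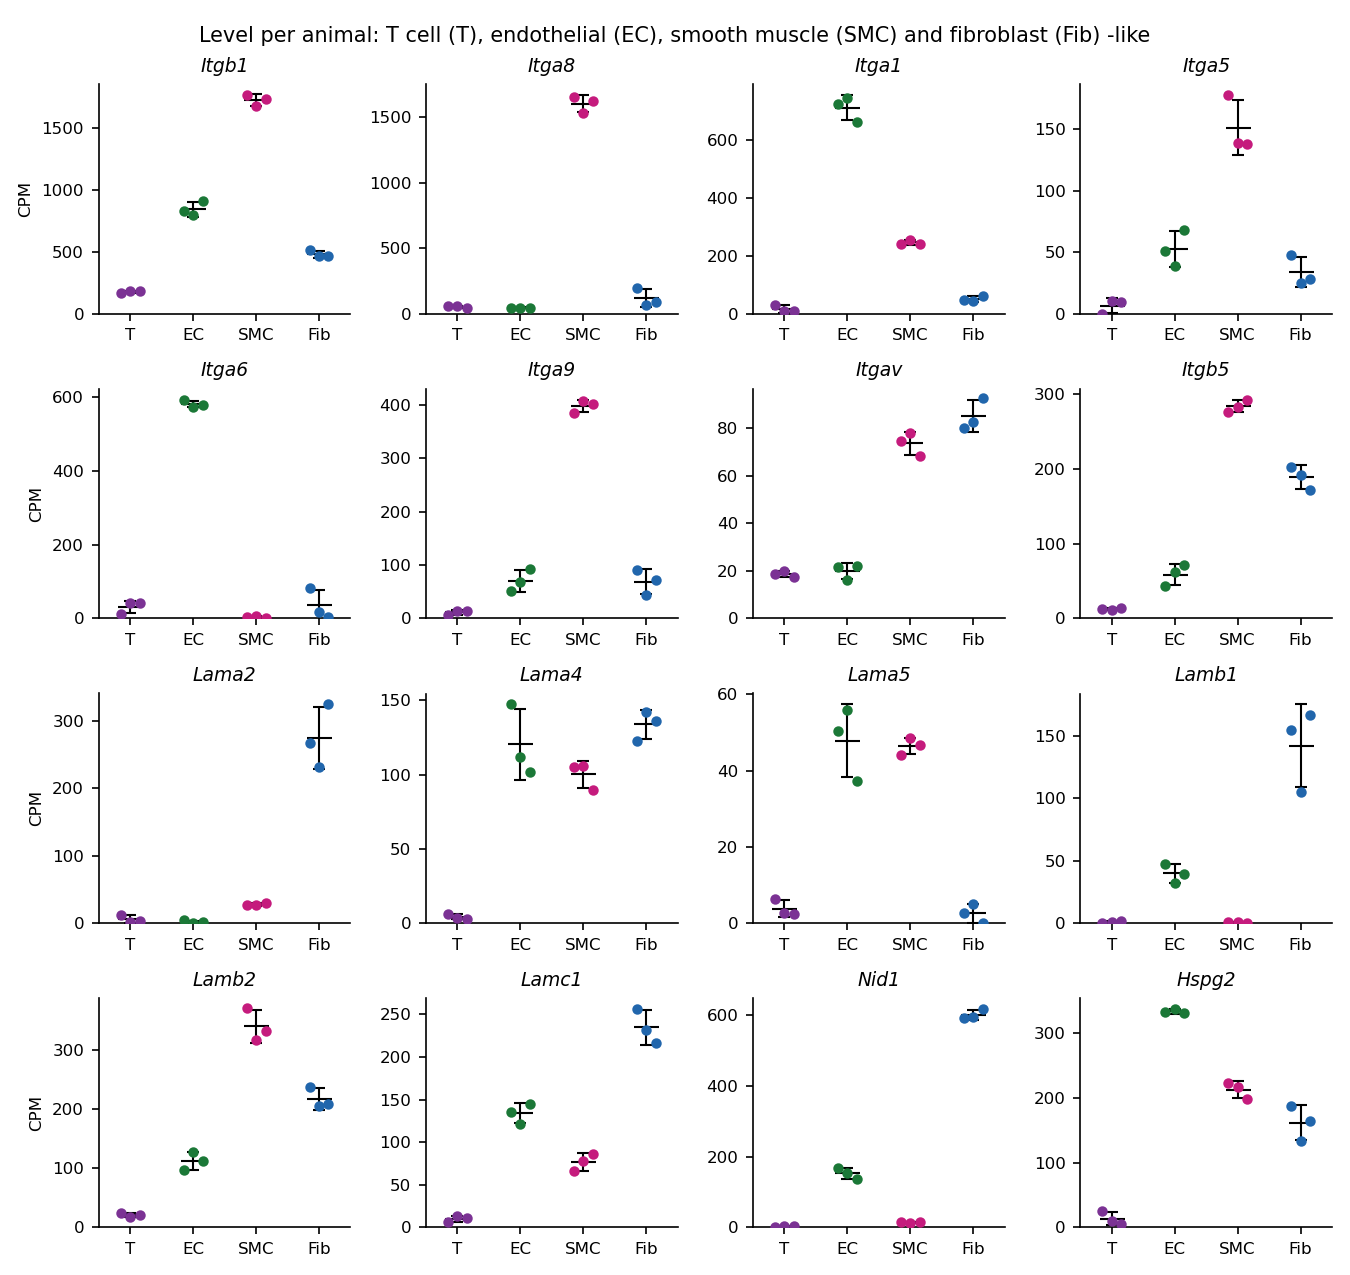
CPM of 16 members (vertical axes, each from 0) in T cell-like (T), endothelial-like (EC), smooth muscle-like (SMC) and fibroblast-like (Fib) cells; points are the animals of 81, 84 and 88 weeks from left to right, and bars are the mean and SD. Itga8 is above 1500 CPM in the 3 smooth muscle-like sets alone, Lama2 and Nid1 are highest in the 3 fibroblast-like sets, and Itga1 and Itga6 in the 3 endothelial-like sets.

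Endothelial-like cells had 2 of the alpha chains at high levels and less of nearly all other integrins than smooth muscle-like cells. Of 26 members tested, 6 were higher and 15 lower, where 16.0% and 16.7% of all 10130 genes were. Among the 15 integrins 3 were higher and 12 lower, and the members' median log2 difference was -1.46, against 0.01 over all genes. Itga6 (chr2:71786886-71858427), the laminin receptor chain of endothelium and epithelium, had 593, 575 and 578 CPM in endothelial-like cells, against 3.82, 7.13 and 2.09 CPM in smooth muscle-like cells (6.88 ± 0.21, adjusted p = 1.52e-09). Itga1 had 724, 744 and 661 CPM in endothelial-like cells, against 242, 256 and 242 CPM in smooth muscle-like cells (1.48 ± 0.08, adjusted p = 1.1e-07). In every animal the 2 chains were higher in endothelial-like cells. Itgb4 had 15.3 ± 2.06 CPM in endothelial-like cells from 67 UMIs and 3 UMIs in smooth muscle-like cells, a ratio of 48.4 with a counting interval of 15.9 to 241. Of these 67 UMIs, 57 came from the 73 large-vessel cells.

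Lower in endothelial-like cells were most of the chains that led in smooth muscle. Itga8 had 46.8, 48.7 and 48.2 CPM in endothelial-like cells (-5.09 ± 0.10 against the smooth muscle-like sets), at 3.10% of the pooled smooth muscle-like level. The 10 smooth muscle markers stood at 2.72% to 18.0% there (median 3.39%). The part of stray smooth muscle RNA in the endothelial-like level of Itga8 was not tested. Itgb3 had 1.61 ± 1.39 CPM (-5.16 ± 0.32), Itga7 2.10 ± 0.777 CPM (-4.72 ± 0.28) and Itgb5, a vitronectin receptor chain, 58.8 ± 14.4 CPM (-2.30 ± 0.13) in endothelial-like cells. Itga9 had 52.1, 67.7 and 92.8 CPM there (-2.53 ± 0.14), Itgav 21.6, 16.0 and 22.0 CPM (-1.94 ± 0.16) and Itga5 51.3, 38.6 and 67.7 CPM (-1.56 ± 0.16). No endothelial-like value of these genes reached a smooth muscle-like one. Itga3 (-1.36 ± 0.25), Itga4 (-2.52 ± 0.32), Itga10 (-2.46 ± 0.33) and Itgb8 (-3.15 ± 0.34) were lower as well. Itgb1 was the mildest of the called genes, with 825, 794 and 908 CPM in endothelial-like cells (-1.07 ± 0.07), and it fell short of the 2-fold limit with doublet calls kept (-0.99).

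Among laminins and linkers, endothelial-like and smooth muscle-like cells differed in the beta chains, in Lama2 and Lamc3 and in the nidogens. Lamb1 had 47.7, 32.1 and 39.7 CPM in endothelial-like cells, against 0.546, 0.611 and 0 CPM in smooth muscle-like cells (6.29 ± 0.40, adjusted p = 2.91e-07). Lamb2 had 97.1, 128 and 113 CPM in endothelial-like cells, against 370, 317 and 333 CPM in smooth muscle-like cells (-1.62 ± 0.13). The beta1 chain was thus higher and the beta2 chain lower. Lama4 (120.4 ± 24.0 and 100.2 ± 9.25 CPM, 0.20 ± 0.11) and Lama5 (47.8 ± 9.56 and 46.4 ± 2.15 CPM, -0.01 ± 0.15) were not called. Nid1 had 167, 155 and 136 CPM in endothelial-like cells, against 15.3, 13.9 and 14.6 CPM in smooth muscle-like cells (3.35 ± 0.13), and Nid2 was higher (2.93 ± 0.34). Lama2 was at 1.80 ± 1.58 CPM in endothelial-like cells (-4.11 ± 0.39) and Lamc3 at 1.40 ± 1.24 CPM (-4.47 ± 0.37). Hspg2 had 333, 338 and 331 CPM in endothelial-like cells, against 223, 218 and 198 CPM in smooth muscle-like cells, and Lamc1 134 ± 11.8 and 77.0 ± 10.4 CPM. These last 2 did not overlap but were under the 2-fold limit (0.61 ± 0.09 and 0.75 ± 0.11).

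Against fibroblast-like cells, endothelial-like cells had 6 of 24 tested members higher and 10 lower, where 13.7% and 15.7% of all 9066 genes were, with a median log2 difference of -0.49 over the members and 0.02 over all genes. This comparison shares its endothelial-like sets with the one above. Higher were Itga6 (4.32 ± 0.38), Lama5 (3.89 ± 0.42), Itga1 (3.84 ± 0.18), Itga3 (2.32 ± 0.56), Agrn (1.501 ± 0.33) and Hspg2 (1.09 ± 0.15), with adjusted p up to 0.00437 by edgeR. Lower were Lama2 (-7.31 ± 0.29), Itga11, Lamc3 (-4.86 ± 0.43), Itgb8, Itgb3, Itgav (-2.11 ± 0.21), Nid1 (-1.97 ± 0.14), Lamb1 (-1.81 ± 0.18), Itgb5 (-1.66 ± 0.18) and Itga8. Itga11 had 1 UMI in endothelial-like and 51 UMIs in fibroblast-like cells, a ratio of 129 with a counting interval of 22.1 to 5190. Itga8 was called at -1.14 ± 0.26, but the difference was -0.62 without the animal of 81 weeks, whose fibroblast-like set had 201 CPM. Itgb4 was not called (1.82, adjusted p = 0.0746), as that same set had 18.7 CPM, but passed without it, where the fibroblast-like sets were at 0. Lamb2 (-0.91 ± 0.16), Lamc1 (-0.80 ± 0.14) and Itgb1 (0.82 ± 0.13) did not overlap between the classes and stayed under the 2-fold limit, except that Lamb2 passed it without the animal of 84 weeks (-1.09). Agrn (0.50 with a hashtag margin of 2 times the cutoff) and Hspg2 (0.91 without the animal of 84 weeks) lost their calls in those settings. So did Itga3 (1.71, adjusted p = 0.0679, without the animal of 88 weeks).

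**Figure D3:**
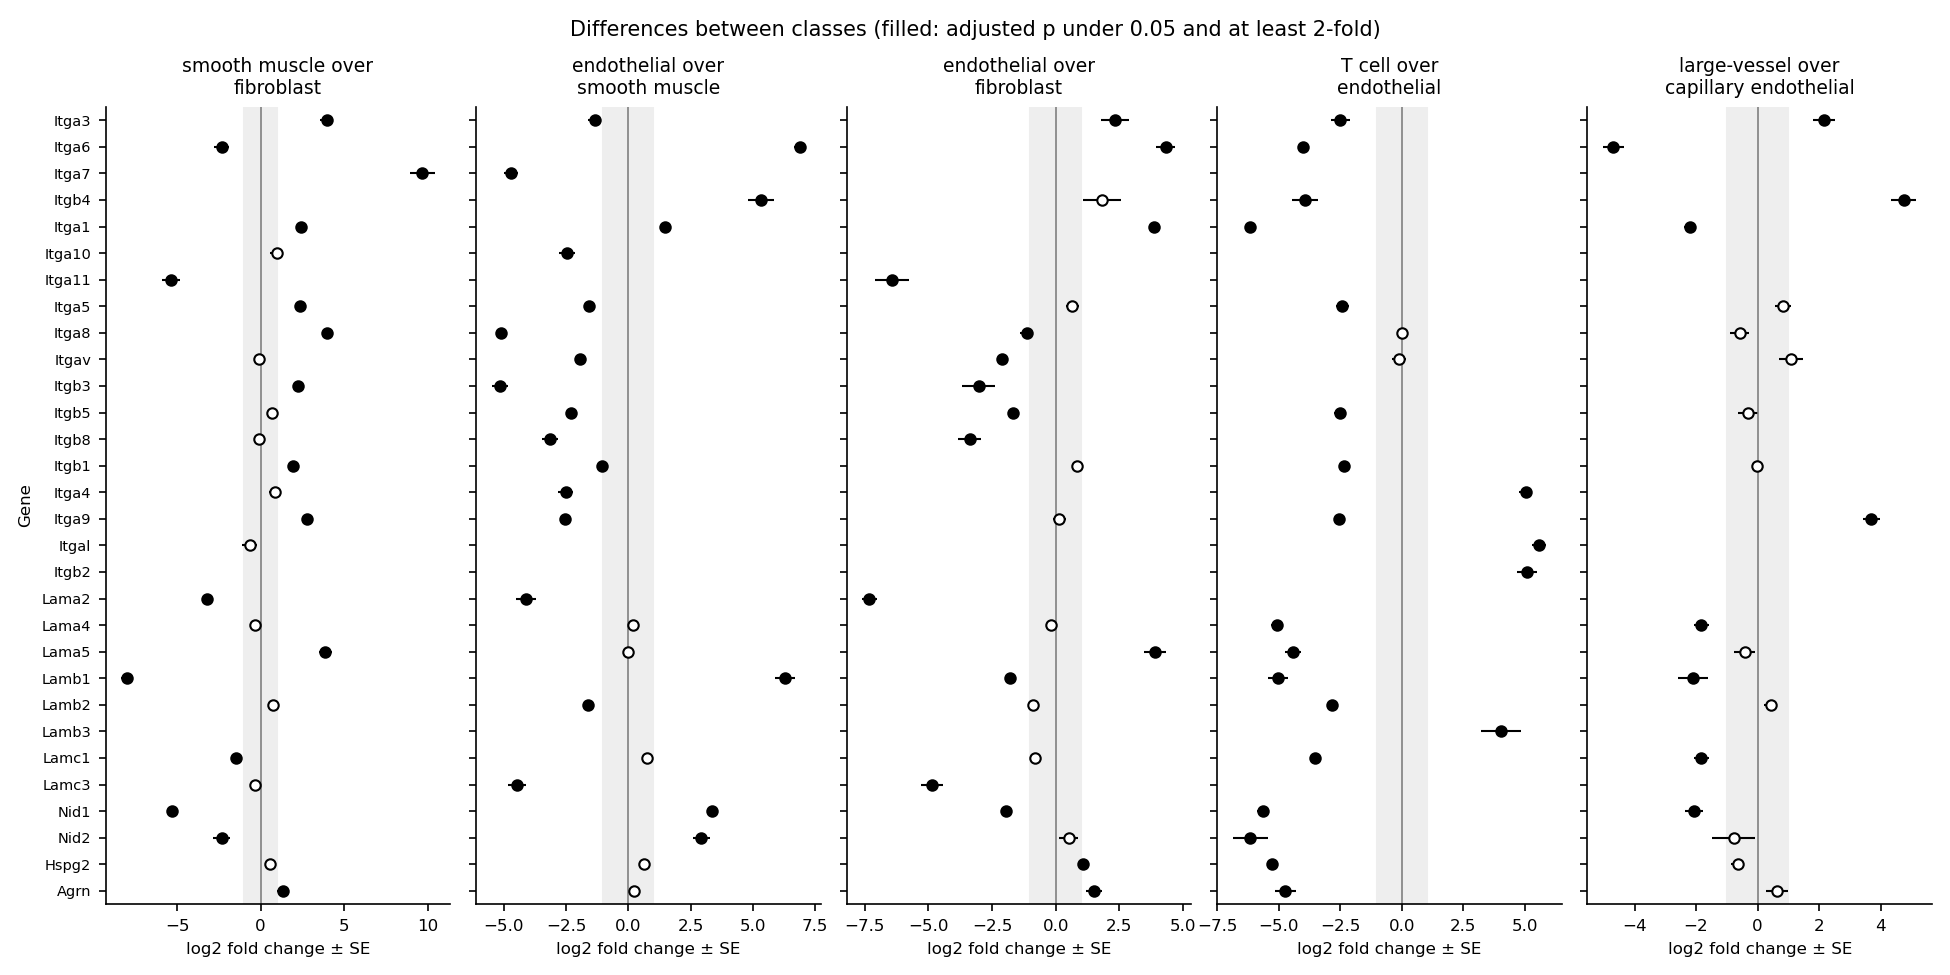
Log2 difference ± SE (horizontal axes) of each member tested (rows) in the 5 comparisons, each titled with the class on top of the difference first; filled points passed an adjusted p under 0.05 and at least 2-fold, open points did not, and the grey band is the 2-fold limit. Most integrins lie left of 0 in endothelial over smooth muscle, and Itga6 lies at 6.88 there and at -4.68 in large-vessel over capillary endothelial.

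Within the endothelium, large-vessel endothelial-like cells had less of the capillary laminin set and of Itga6 and Itga1, and more Itgb4, Itga9 and Itga3. Of 19 members tested, 3 were higher and 6 lower than in capillary endothelial-like cells, where 11.6% and 11.0% of all 7289 genes were, with a median log2 difference of -0.42 over the members and -0.01 over all genes. The 3 members higher are near the share over all genes. The large-vessel sets were small (160835, 206026 and 445856 UMIs). Itga6 had 56.0, 29.1 and 13.5 CPM in large-vessel cells, against 683, 651 and 789 CPM in capillary cells (-4.68 ± 0.34, adjusted p = 4.57e-07). Itga1 had 174, 160 and 197 CPM in large-vessel cells, against 817, 825 and 834 CPM in capillary cells (-2.20 ± 0.18, adjusted p = 1.55e-06). For both chains every capillary value was above every large-vessel one, and capillary cells were 742 of the 815 in the endothelial-like sets. Itgb4 had 99.5, 77.7 and 56.1 CPM in large-vessel cells, against 3.15, 4.06 and 0.839 CPM in capillary cells (4.76 ± 0.41). Itga9 had 205, 335 and 310 CPM in large-vessel cells, against 26.3, 30.5 and 11.7 CPM in capillary cells (3.70 ± 0.28). Itga3 had 43.5, 24.3 and 92.0 CPM, against 14.7, 8.12 and 14.3 CPM (2.15 ± 0.36), and its adjusted p was 0.0507 without the animal of 88 weeks. Itgb1 was not called, with 839 ± 41.5 CPM in large-vessel and 848 ± 76.2 CPM in capillary cells (0.00 ± 0.16).

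Lama4 had 43.5, 43.7 and 31.4 CPM in large-vessel cells, against 165, 121 and 128 CPM in capillary cells (-1.82 ± 0.25, adjusted p = 1.17e-04). Lamc1 had 49.7, 29.1 and 51.6 CPM in large-vessel cells, against 150, 135 and 180 CPM in capillary cells (-1.83 ± 0.24), and Nid1 31.1, 72.8 and 29.2 CPM, against 190, 166 and 176 CPM (-2.06 ± 0.29). Lamb1 had 0, 9.71 and 15.7 CPM in large-vessel cells, against 55.7, 35.2 and 48.6 CPM in capillary cells (-2.10 ± 0.48), and its adjusted p was 0.0837 by edgeR without cells holding any T cell UMI (-1.91), an alternative chosen after seeing the data. None of these 4 genes overlapped between the 2 cell types, and the share of all genes that did not was not counted. Lama5 (39.4 ± 19.8 and 49.7 ± 9.30 CPM), Lamb2 (137 ± 37.7 and 105 ± 16.0 CPM) and Agrn were not called. Itga5 (0.83 ± 0.26) and Hspg2 (-0.65 ± 0.20) passed the p but not the 2-fold limit. Itgav was not called (1.08 ± 0.40, adjusted p = 0.0583), and it was called in 5 of the 15 other settings.

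T cell-like cells had more of the leukocyte chains Itgal, Itgb2 and Itga4 than endothelial-like cells, and less of most other members tested. Of 23 members tested against endothelial-like cells, 4 were higher and 17 lower, where 22.2% and 26.0% of all 10295 genes were, with a median of -2.83 over the members and 0.04 over all genes. The share of members higher was thus no larger than that of all genes. The largest adjusted p among the 21 called was 1.47e-06 by edgeR. The T cell-like sets were unequal, with 34, 1293 and 358 cells, and that of 81 weeks held 160291 UMIs, so its low values rest on few UMIs. Itgal, the alpha chain of LFA-1, which binds Icam1 and Icam2, had 125, 147 and 127 CPM in T cell-like cells, against 2.70, 2.38 and 2.44 CPM in endothelial-like cells (5.57 ± 0.29). Its partner Itgb2 had 18.7, 53.0 and 52.9 CPM in T cell-like cells, against 0, 1.19 and 1.83 CPM in endothelial-like cells (5.08 ± 0.42). Itga4, which pairs with Itgb1 as a receptor for Vcam1 and fibronectin, had 150, 155 and 150 CPM in T cell-like cells, against 1.80, 3.56 and 6.10 CPM in endothelial-like cells (5.03 ± 0.26). All 3 stood apart in every animal. The fourth gene higher was the laminin chain Lamb3, at 54 UMIs in T cell-like and 2 UMIs in endothelial-like cells, a ratio of 14.4 with a counting interval of 3.79 to 122. Lamb3 fell under the filter on low counts without the animal of 84 or 88 weeks.

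Itgb1 in T cell-like cells had 168, 182 and 185 CPM (-2.37 ± 0.13), and Itga6 had 12.5, 41.6 and 40.5 CPM (-4.01 ± 0.15). The pooled Itga6 level in T cell-like cells was 5.93% of that in capillary cells, where 10 endothelial markers had a median of 0.47% and a highest value of 7.77%. Hspg2 (13.6 ± 10.2 CPM), Nid1 (2.49 ± 2.36), Lama4 (4.24 ± 1.75), Nid2, Agrn, Lama5, Lamb1, Lamb2, Lamc1, Itga1, Itga3, Itga5, Itga9, Itgb4 and Itgb5 were also lower in T cell-like cells. Itga8 was not called there, with 55.7 ± 7.89 and 47.9 ± 1.01 CPM (0.02 ± 0.18). It stood at 3.59% of the smooth muscle-like level in T cell-like cells, where the smooth muscle markers stood at 2.67% to 7.40% (median 3.77%). The part of stray smooth muscle RNA in the Itga8 level was not tested in either class. Itgav, with 18.8 ± 1.23 and 19.9 ± 3.32 CPM, was not called either.

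Taking each laminin trimer or integrin pair at the level of its scarcest chain, the classes differed in which complexes they had all chains for. The measure is a level of RNA and not of assembled protein. The Lama2-Lamb1-Lamc1 trimer was at 142 ± 33.1 CPM in fibroblast-like cells and at 1.80 ± 1.58 CPM or less in smooth muscle-like and endothelial-like cells. The Lama2-Lamb2-Lamc1 trimer was at 217 ± 18.2 CPM in fibroblast-like cells and 27.3 ± 1.69 CPM in smooth muscle-like cells, where Lama2 was the scarcest chain. With Lama5, the Lama5-Lamb2-Lamc1 trimer was at 47.8 ± 9.56 CPM in endothelial-like cells, 46.4 ± 2.15 CPM in smooth muscle-like cells and 2.57 ± 2.52 CPM in fibroblast-like cells. The Lama5-Lamb1-Lamc1 trimer was at 39.0 ± 7.94 CPM in endothelial-like cells and 0.386 ± 0.335 CPM in smooth muscle-like cells. Smooth muscle-like cells thus had chains for the trimers with Lamb2 and hardly any for those with Lamb1. The Lama4-Lamb2-Lamc1 trimer was found in all 3, at 104 ± 7.41 CPM in endothelial-like cells, 77.0 ± 10.4 CPM in smooth muscle and 134 ± 9.83 CPM in fibroblast-like cells. The endothelial-like levels are mostly those of capillary cells. Lama4, Lamb1 and Lamc1 were at 39.5 ± 7.05, 8.47 ± 7.92 and 43.5 ± 12.5 CPM in large-vessel cells. In capillary cells they were at 138 ± 23.5, 46.5 ± 10.4 and 155 ± 23.2 CPM. Lama5 and Lamb2 were not called between the 2 endothelial types.

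Of the laminin receptors, the Itga6-Itgb1 pair was at 708 ± 72.2 CPM in capillary, 32.8 ± 21.5 CPM in large-vessel endothelial-like cells and 4.35 ± 2.56 CPM in smooth muscle. The Itga6-Itgb4 pair was at 32.8 ± 21.5 CPM in large-vessel and 2.68 ± 1.66 CPM in capillary cells. Smooth muscle-like cells had the Itga7-Itgb1 pair at 53.4 ± 3.55 CPM and the Itga3-Itgb1 pair at 51.9 ± 3.44 CPM. Itgb1 was present in all of these classes, and the alpha chain was the scarcer one in these 3 pairs with it. Itga8-Itgb1 led in smooth muscle-like cells at 1599 ± 65.8 CPM, and its ligand nephronectin (Npnt), of the partner list, was at 981 ± 8.59 CPM in the same cells, against 51.5 ± 11.6 CPM in fibroblast-like cells (4.42 ± 0.14, adjusted p = 3.75e-18) and 32.6 ± 4.18 CPM in endothelial-like cells. The vitronectin receptor Itgav-Itgb3 was at 63.8 ± 5.68 CPM in smooth muscle-like, 16.5 ± 5.81 CPM in fibroblast-like and 1.61 ± 1.39 CPM in endothelial-like cells.

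**Figure D4:**
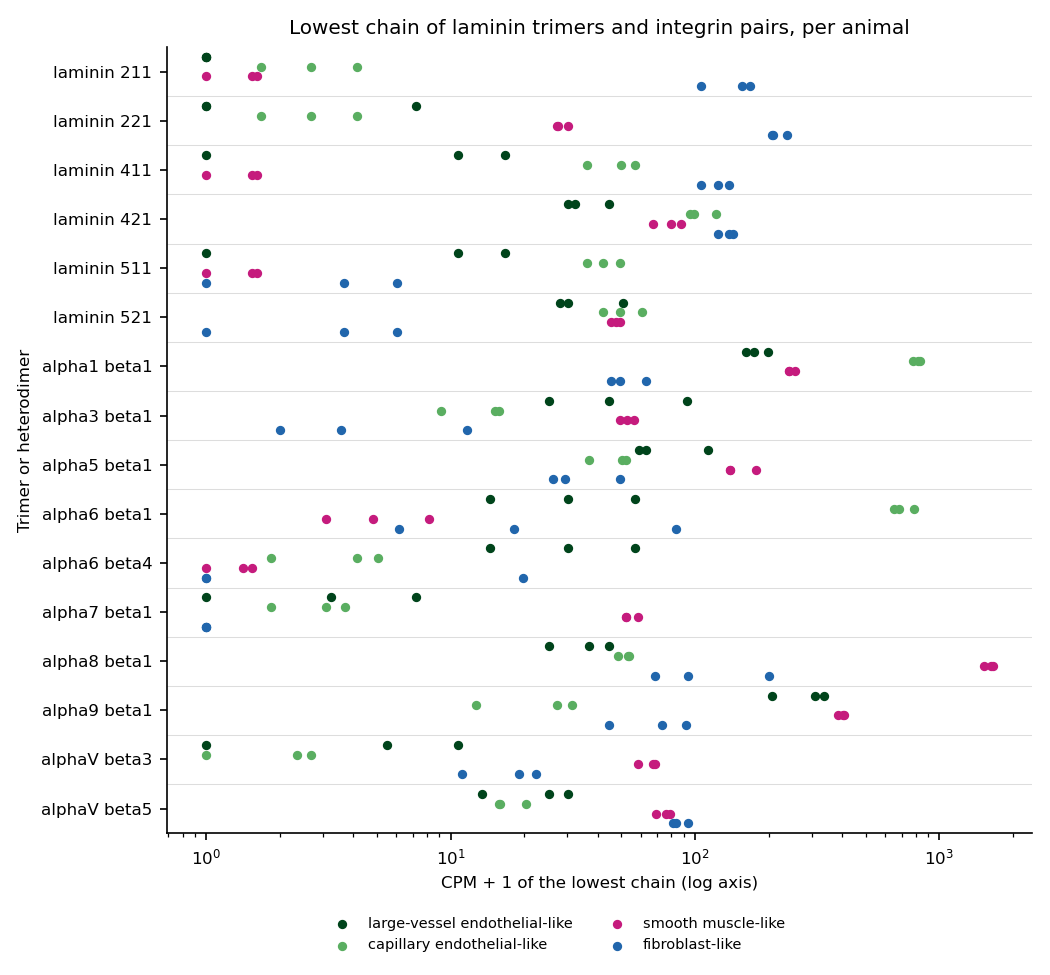
CPM plus 1 of the scarcest chain (horizontal log axis) of 6 laminin trimers, named by their alpha, beta and gamma chain numbers, and 10 integrin pairs, in large-vessel and capillary endothelial-like, smooth muscle-like and fibroblast-like cells; each point is 1 animal. The trimers with beta1 sit at the left edge in smooth muscle-like cells, those with alpha5 sit left in fibroblast-like cells, and alpha8 beta1 in smooth muscle-like cells is the point group furthest right.

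The fibroblast-like class held 2 clusters large enough in every animal, and the laminin and nidogen genes, which were left out of the clustering, were unequal between them. One cluster was led by Clec3b, Pi16 and Dcn (123 hashtagged cells), the other by Dcn, Serpinf1, Lum and Cytl1 (73 cells). Nid1 had 868, 805 and 890 CPM in the Pi16 cluster, against 132, 219 and 245 CPM in the Cytl1 cluster. Lamb1 had 235, 149 and 268 CPM in the Pi16 cluster, against 23.2, 24.6 and 21.7 CPM in the Cytl1 cluster. Lama4 had 171, 190.4 and 207 CPM in the Pi16 cluster, against 46.5, 55.4 and 36.1 CPM in the Cytl1 cluster, and Lamc1 338, 302 and 315 CPM, against 132, 105 and 79.4 CPM. These 4 genes were higher in the Pi16 cluster in each animal with no overlap, and the share of all genes that did so was not counted. Lamc3, a gamma chain, ran the other way, with 4.28, 4.65 and 12.96 CPM in the Pi16 cluster, against 69.7, 154 and 144 CPM in the Cytl1 cluster. Lama2 (250 ± 66.3 and 337 ± 33.3 CPM) and Lamb2 (195 ± 43.7 and 262 ± 27.4 CPM) overlapped. As genes that vary with these members shaped the clusters, the values are a description without a test.

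**Figure D5:**
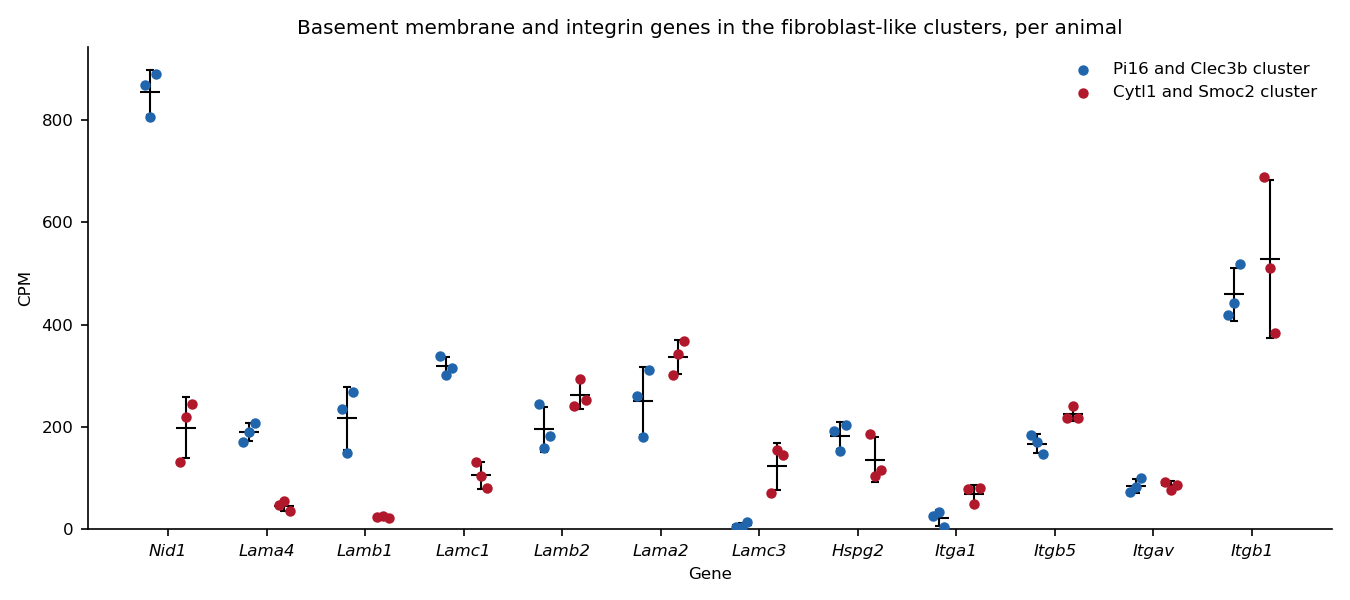
CPM (vertical axis from 0) of 12 members in the 2 fibroblast-like clusters; points are the animals of 81, 84 and 88 weeks from left to right, and bars are the mean and SD. Nid1, Lama4, Lamb1 and Lamc1 lie higher in the Pi16 and Clec3b cluster in every animal, and Lamc3 in the Cytl1 and Smoc2 cluster.

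Among smooth muscle-like clusters, pooled over cells with 1 or no hashtag, Itgb1 ranged from 1449 to 1836 CPM. Itga8 varied more, from 1782 CPM (counting interval 1765 to 1799) in the cluster of 2049 cells led by Mylk4 and Myh11 to 943 CPM (912 to 975) in the cluster led by Tnnt2, Actc1 and Des. It was at 607 CPM (522 to 702) in a cluster of 28 cells led by Pln and Sorbs2. That small cluster had 587 CPM of Itga1, where the other 5 had 242 to 261 CPM. It also passed the marker limits for pericytes, so its name does not set it apart from pericyte-like cells. Itga5 was at 197 CPM (190 to 204) in a cluster of 1161 cells and at 89.6 to 133 CPM in the other 5. Intervals here and in the next sentences are exact Poisson 95% and cover counting error only. Cells of these clusters come from the same 3 animals and were mostly without a hashtag, so no test was made. The exception was a cluster of 311 cells, also led by Mylk4 and Myh11, where 255 cells had 1 hashtag. These were 255 of the 739 hashtagged smooth muscle-like cells, so this cluster weighs more in the sets per animal than in the pool.

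Pericyte-like cells (75 cells, 15 of them hashtagged) had more Itga1 and Itga7 and less Itga8 than smooth muscle-like cells, with intervals that did not meet. They had 1113 CPM of Itgb1, 562 CPM of Itga1 (500 to 630) and 136 CPM of Itga7 (106 to 171), where pooled smooth muscle-like cells had 247 CPM of Itga1 and 54.9 CPM of Itga7 (53.1 to 56.8). Itga8 was at 207 CPM (169 to 249.3) in pericyte-like cells, and unlike smooth muscle-like cells they had Lamb1, at 51.6 CPM (34.0 to 75.1), and Nid1, at 143 CPM (113 to 180). The capillary gene Fabp4 was among the leading genes of the pericyte-like clusters of 40 and 18 cells, but not of that of 17. Capillary cells had means of 46.5 CPM of Lamb1, 178 CPM of Nid1 and 825 CPM of Itga1. The part of stray capillary RNA in the pericyte-like levels was not tested. The laminin chains of epithelium were found in epithelial-like cells. In the cluster led by the thymic genes Tbata and Prss16, Lama3 had 112 CPM (81.5 to 150) and Lamb3 74.5 CPM (50.3 to 106), with 191 CPM of Itga6 and 79.5 CPM of Itgb4. In the cluster led by Cyp2f2 and Wfdc2, Lamb3 had 159 CPM (115 to 213) and Itgb4 166 CPM (121 to 221.2), whereas Lama3 had 2 UMIs. Itgb6 had 14 UMIs in all cells, 8 of them in epithelial-like cells.

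Leukocyte chains followed the immune classes. Macrophage-like cells (30 cells) had 228 CPM of Itgam (163 to 311), 166 CPM of Itgb2, 126 CPM of Itgad (78.7 to 190) and 97.1 CPM of Itgax (56.5 to 155), the last 2 with 22 and 17 of the 26 and 44 UMIs found in all cells. NK cell-like cells (28 cells) had 97.2 CPM of Itgb7 (56.6 to 156) and 74.4 CPM of its partner Itgae (39.6 to 127), where T cell-like cells had 4.56 and 0.444 CPM. The single cluster of the NK cell-like class, led by Cd52, Il7r and Ccl5, also passed the marker limits for T cells. All of its cells held T cell RNA, so its name does not set it apart from T cells. Inside the T cell-like class, Itgal was at 101 CPM (91.5 to 110) in the dividing cluster led by Hist1h2ap and Mki67, 191 CPM (174 to 208) in the cluster led by Trbc2 and Rag1, and 334 CPM (253 to 433) in a cluster of 48 cells led by Lef1 and Cd52. Itgb2 had the same order over these 3 clusters, at 32.3, 75.4 and 164 CPM, and Itga4 did not, at 144, 154 and 82.1 CPM. A cluster of 24 cells led by Myl10 and Cd3g had 362 CPM of Itga4 (265 to 483) and 47.2 CPM of Itgal (17.3 to 103). Schwann-like cells (17 cells) had 253 CPM of Itga6 (159 to 383), 92.0 CPM of Itgb4 and 264 CPM of Nid1, and mesothelial-like cells (47 cells) had 110.5 CPM of Itgb8 (83.9 to 143). Lymphatic endothelial-like cells (13 cells) had 319 CPM of Lama4 (220.7 to 445) and 216 CPM of Itga9. Itga2, a collagen receptor chain, and Itga2b, the platelet fibrinogen receptor chain, had 9.81 and 10.9 CPM in pooled fibroblast-like cells and less in smooth muscle-like, endothelial-like and T cell-like cells.

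Other genes of the basement membrane, other integrin ligands and the adaptors inside the cell were counted from lists chosen with earlier results known. In smooth muscle-like over fibroblast-like cells, 10 of 19 adaptors tested were higher and 2 lower (median 1.18), where 10.2% and 12.2% of all genes were. Among them Actn1 (alpha-actinin) was at 1222 ± 20.03 and 104 ± 9.64 CPM, and the actin crosslinker Flna at 2284 ± 57.4 and 229 ± 65.0 CPM. Of 21 basement membrane partners 6 were higher, among them Npnt, Col18a1 (3.79 ± 0.17) and the laminin receptor Bcam (3.77 ± 0.20), and 8 were lower, led by Smoc2 (-6.36) and Fbln1 (-5.58 ± 0.14). Of 14 other ligands 5 were higher and 6 lower. In endothelial-like over smooth muscle-like cells, 5 of 21 adaptors were higher and 8 lower, where 16.0% and 16.7% of all genes were, with the kinase Ptk2 higher (2.45 ± 0.13) and Flna lower (-4.00 ± 0.08). There 6 of 20 partners were higher, with Fbln2 first (3.69 ± 0.17), and 9 lower, with Col4a6 (-5.11) and Npnt (-4.95 ± 0.11) first, and 4 of 15 other ligands were higher and 9 lower. In endothelial-like over fibroblast-like cells, 9 of 20 adaptors, 5 of 21 partners and 4 of 15 other ligands were higher, and 1, 10 and 7 were lower, where 13.7% and 15.7% of all genes were higher and lower.

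In T cell-like over endothelial-like cells, 4 of 22 adaptors were higher and 12 lower, where 22.2% and 26.0% of all genes were, so the share of adaptors higher was no larger than that of all genes. Fermt3, the kindlin of blood cells, which switches integrins on, was at 148 ± 16.1 and 10.7 ± 3.45 CPM, and its relative Fermt2 at 14.5 ± 1.77 and 569 ± 85.1 CPM. No partner and no other ligand was called higher there by edgeR, while 12 of 17 and 11 of 15 were lower. In large-vessel over capillary endothelial-like cells, 10 of 15 other ligands were higher and 1 lower (median 1.39), where 11.6% and 11.0% of all genes were, with Fn1 (fibronectin) at 410.2 ± 226 and 24.5 ± 5.96 CPM and Thbs1 at 413 ± 327 and 10.4 ± 10.7 CPM. Among the 10 was Vcam1 (5.51 ± 0.24), also a marker used to name clusters large-vessel, so its call was favoured by the naming. Fibroblast markers summed to 1181, 2519 and 1783 CPM in the large-vessel sets and to 325, 205 and 206 CPM in the capillary sets. The part of stray fibroblast RNA in the levels of these ligands was not tested. The collagen chains Col4a1 (173 ± 60.8 and 1690.4 ± 347 CPM) and Col4a2 (44.6 ± 20.1 and 835 ± 137 CPM) were lower, as were Lama4, Lamb1, Lamc1 and Nid1. In all, 8 of 17 partners and 3 of 19 adaptors were higher, and 5 and 4 were lower, and the 3 adaptors higher are near the share over all genes.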

How the data were processed

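Gene expression and hashtag libraries (4 of each) of a single pool of cells from 3 mice were deposited as 1 matrix of raw UMI counts, which the authors made with Cell Ranger 6.0.1, per the file headers. Per the submitters' processing notes, mm10 and Seurat 4.0.5 were used. Reads of the libraries were not kept apart, so no depth per library can be given. Per the labels' protocols, tissue was digested for 60 min at 37 °C and strained at 70 µm before loading. Hashtags 1, 2 and 3 mark the animals of 81, 84 and 88 weeks, per a deposited reference table.

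Hashtags were called with HTODemux (Seurat 5.3.0, quantile 0.99, cutoffs of 129, 765 and 266 UMIs). Cells needed 500 genes, 1000 UMIs and under 15% mitochondrial UMIs. Scrublet's own limit called no doublets, so the top 6% of scores were called (647 cells, 5.73%). Cells with 1 or no hashtag were clustered (scanpy 1.11.5, igraph 0.11.9, 2000 variable genes, 30 components, 15 neighbours, Leiden resolution 0.8) without the members, the list genes, mitochondrial and ribosomal protein genes; clusters passing for several classes were clustered once more at resolution 0.5. Genes that vary with the members could still shape clusters. A name needed a marker score of at least 1.5 and 3 markers raised 2-fold over the median cluster; 16 of 53 clusters (660 cells) stayed unnamed. These limits were set after seeing the data. Not every member is reported here.

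Counts were summed per animal and class (at least 10 cells) and tested with edgeR 4.0.16 (TMM, filterByExpr, animal as block, quasi-likelihood F test, Benjamini-Hochberg over all genes tested). SE is the log2 difference over the root of F. In the comparison of T cell-like cells the prior degrees of freedom were infinite, so its p-values rest on the spread pooled over genes. The 3 animals, as told apart by their hashtags, are the replicates. At 2 times the hashtag cutoff, 29 of 369 smooth muscle-like and 14 of 115 fibroblast-like cells of 84 weeks were kept. Whether the hashtag of such cells came from their own animal was not tested. The lists and members were chosen with earlier results of these data known. The test was checked on simulated counts. Values per animal are given for called members with the same sign in all animals and at least 50 CPM in the higher class, up to 8 each way, and for Itgb1, Itga5, Itga6, Itgav, Lama4, Lama5, Lamb1, Lamb2, Lamc1, Nid1, Hspg2 and Agrn as values or means. Alternatives were DESeq2 1.42.0, other scalings, filters, blocks, hashtag margins and cell sets, and leaving out each animal. Positions and promoters are from RefSeq (GRCm38.p6), where all 41 members matched and 26 had a promoter.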

Additional observations from a re-analysis of the deposited data

Results flagged for a closer look

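4 levels in clusters that entered no comparison lay above those of every named class, with exact Poisson 95% intervals that do not meet. Itga10, a collagen receptor chain of cartilage, had 333 CPM (259 to 421.3, 69 UMIs) in an unnamed cluster of 28 cells led by Cytl1, Chad and Col2a1. Itga4 had 499 CPM (426 to 582, 164 UMIs) in an unnamed cluster of 21 cells led by Plac8, Myl10 and Tcrg-C1, and 385 CPM (299 to 489, 67 UMIs) in one of 24 cells led by Plac8, Myl10 and Trdc. Pooled T cell-like cells had 152 CPM of Itga4 (144 to 160), and one of their clusters, of 24 cells, had 362 CPM (265 to 483). Itga5 had 176 CPM (152 to 202, 199 UMIs) in an unnamed cluster of 80 cells with haemoglobin and smooth muscle genes, against 142 CPM in pooled smooth muscle-like cells and 197 CPM in one of their clusters, of 1161 cells. No sample or animal was compared here, and no cause was tested.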

How the results depend on the processing

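The number of members called stayed within 1.5 times its value in each of the 15 other settings of every comparison. It ranged from 13 to 19 in smooth muscle-like over fibroblast-like cells (17 as reported), 17 to 23 in endothelial-like over smooth muscle-like (21), 11 to 21 in endothelial-like over fibroblast-like (16), 17 to 23 in T cell-like over endothelial-like (21) and 6 to 11 in large-vessel over capillary endothelial-like cells (9). Leaving out 1 animal gave 16 to 19, 21, 15 to 17, 20 to 21 and 8 to 10. Of the reported calls, 13 to 17, 17 to 21, 10 to 16, 17 to 21 and 6 to 9 were kept. Over all settings and comparisons, calls of single members were lost 64 times, 15 times by a member still tested and 49 times by one that no longer passed the filter on low counts. Calls were gained 40 times, 19 of them by members tested as reported. Beside the gains named with their results, Nid2 was called in large-vessel over capillary cells without the animal of 84 weeks (-1.94). Among members with an adjusted p under 0.05 as reported, only Itga8 in endothelial-like over fibroblast-like cells turned direction. It went to 0.26 (adjusted p = 0.771 by edgeR) with a hashtag margin of 2 times the cutoff. That margin left the fibroblast-like set of 81 weeks with 9 cells and so dropped it, and the cause was not tested further. For members above that p, turns were not counted where the other setting did not call them. Leaving out cells with any T cell UMI and clustering only hashtagged cells were alternatives chosen after seeing the data. Of the member levels in the 4 main classes, 42 were at or above 50 CPM in the sets and 44 in the pool with unhashtagged cells, 41 of them shared. Every fit was paired by animal, and without this replicate block the counts were 17, 21, 16, 21 and 10. The 16 unnamed clusters, the small large-vessel sets and the few hashtagged smooth muscle-like and fibroblast-like cells limit what can be seen at this depth.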
